A study of Mus musculus with 4 samples.

Results

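The cytosolic ribosomal proteins, the protein parts of the ribosomes that translate nuclear messages, were followed in mouse eye tissue. Members were all probe sets annotated with exactly 1 gene symbol of the form Rpl or Rps plus a number and at most 1 further letter, or with Rplp0, Rplp1, Rplp2 or Rpsa. This gave 100 of the 45101 probe sets on the array, for 46 of the 18193 genes that had a probe set of their own. The large subunit had 44 probe sets of 24 genes and the small subunit 56 probe sets of 22 genes. The choice used names alone and no signal. Rplp1 had no such probe set.

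Total RNA from tissue labelled retina was hybridised to 4 one-colour Affymetrix arrays, 2 for control mice and 2 for transgenic mice whose aqueous humor contained expressed myocilin, a glycoprotein that cells secrete. Control array 2 carries the label of a technical repeat of control array 1, so both together counted as 1 sample, and the transgenic arrays were taken as 2 samples. The labels used here give no strain, age, sex, promoter of the transgene or number of pooled animals, and do not state whether different animals gave the transgenic arrays. The spread behind every p-value is that of these arrays alone and may be technical.

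A ribosome has a small subunit, which reads the messenger RNA, and a large subunit, which joins the amino acids and releases the new chain through a tunnel. Each ribosomal protein is usually present in a single copy per ribosome, and the messages of these proteins are among the most abundant in most cells. Many of these messages start with an unbroken run of C and T bases, the terminal oligopyrimidine tract, through which their translation follows the activity of the mTOR kinase.

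Promoter sequences were taken from RefSeq on build GRCm38.p6, which listed 40 of the 46 genes. The first 4 sequences that follow show that tract in members with both transgenic arrays above both control arrays. The paralogs Rps27l and Rpl3l are shown for contrast, since their runs end before the annotated start, and that of Rpl3l is short. Each sequence runs from 80 bases before the annotated start to 15 bases from it. Capitals mark the longest run of C and T that overlaps the 5 bases on either side of the start, read on the strand of the gene.
Rpl35, chr2:39005117-39005211, minus strand: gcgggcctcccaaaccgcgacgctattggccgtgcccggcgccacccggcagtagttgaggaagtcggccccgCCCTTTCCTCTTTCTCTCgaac
Rps18, chr17:33955651-33955745, minus strand: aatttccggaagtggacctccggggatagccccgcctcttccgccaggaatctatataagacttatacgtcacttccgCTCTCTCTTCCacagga
Rps10, chr17:27635230-27635324, minus strand: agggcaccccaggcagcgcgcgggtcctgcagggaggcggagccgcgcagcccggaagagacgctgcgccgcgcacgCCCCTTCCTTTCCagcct
Rplp2, chr7:141447571-141447665, plus strand: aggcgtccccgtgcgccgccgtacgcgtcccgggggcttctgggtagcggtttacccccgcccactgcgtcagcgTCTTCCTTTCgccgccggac
Rps27l, chr9:66946006-66946100, plus strand: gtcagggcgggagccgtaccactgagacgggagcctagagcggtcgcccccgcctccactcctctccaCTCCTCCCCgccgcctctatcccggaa
Rpl3l, chr17:24727746-24727840, plus strand: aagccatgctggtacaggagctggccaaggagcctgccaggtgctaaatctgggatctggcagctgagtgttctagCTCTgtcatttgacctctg

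The run was 18 bases long at Rpl35, 13 at Rps10, 11 at Rps18, 10 at Rplp2, 9 at Rps27l and 4 at Rpl3l. A run of at least 8 bases was found at 16 of the 40 member promoters, or 40%, against 9.3% of all 27025 promoters. These counts include runs that end before the annotated start, such as that of Rps27l, so they are not counts of terminal oligopyrimidine tracts. The median run was 6 bases at the members and 3 at all promoters. CCGGAAG, a core of the sites bound by ETS family factors, lay on either strand within 250 bases before and 50 after the start of 20 members, or 50%, against 9.12% of all promoters. The GC box GGGCGG was found at 21 members, or 52.5%, against 35.9% of all promoters. TATAAA, the TATA box, was found at 4 members, or 10%, against 14.2% of all promoters, and AAGATGGC, a core of YY1 sites, at 2 members, or 5%, against 2.88%. These matches may overlap each other and are descriptions of letters in a window, not of binding. A gene with several promoters was represented by the first that RefSeq listed. The difference between transgenic and control, on the log2 scale, had a median of 0.21 over the 16 genes with a run of at least 8 bases and 0.27 over the 23 tested genes with a shorter run. It was 0.25 over the 20 genes with CCGGAAG and 0.23 over the 19 tested genes without it.

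Signals are the linear intensities that the authors deposited, with a mean of 150 on every array after 2% of the probe sets were trimmed at each end. Differences are transgenic minus control on the log2(signal + 16) scale, where the control arrays were averaged first, and they understate the change of dim probe sets. A signal depends on the probes as well as on the message, so signals are compared between arrays and never between genes. The filter on low signal, which kept mean log2 values over the 40th percentile (a signal of about 30.0), left 27022 probe sets, among them 89 members: 42 of the large and 47 of the small subunit, for 45 genes. The other 11 members, 2 of the large and 9 of the small subunit, had mean signals of at most 29.7. Rps16, a small-subunit protein, had no tested probe set, and its signals were 1.79, 0.878, 2.08 and 0.95, in the order control array 1, control array 2, transgenic array 1, transgenic array 2, which is kept throughout.

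No ribosomal protein probe set passed the test, and most had higher signals on both transgenic arrays than on both control arrays. With limma and Benjamini-Hochberg adjustment over all probe sets, 0 of the 89 members had an adjusted p under 0.05, where 21 of all 27022 probe sets, or 0.0777%, had one, and the lowest adjusted p of a member was 0.219. At an unadjusted p under 0.05, 52 members were higher and 0 lower, against 4.14% of all probe sets higher and 2.92% lower. Without control array 1, 34 members were higher and 2 lower at that level. Without control array 2, 56 were higher and 0 lower, and 33 of all probe sets had an adjusted p under 0.05. The median difference of the members was 0.23, a fold of 1.17, with a range from -0.38 to 0.45, and the median of all probe sets tested was -0.02. Both transgenic arrays lay above both control arrays for 66 members, or 74.2%, against 21.1% of all probe sets. Both lay below for 4 members, against 23.6% of all probe sets, and the groups overlapped for the other 19. In bulk tissue, fewer cells of a type and less RNA per cell cannot be told apart.

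The size of this shift depended on how the arrays were scaled. Under quantile normalization, which gives every array the same distribution of signals, the median of the members was 0.05, the large subunit's 0.04 and the small subunit's 0.05. Of the 89 members, 66 then lay above 0 and 23 below. Both transgenic arrays were then above both control arrays for 44 members, or 49.4%, against 22.4% of all probe sets, and below for 8. With each array centred on its median, 66 members, or 74.2%, were above and 2 below, against 24.1% of all probe sets above. Of the members, 5 probe sets, of Rpl13a, Rpl35, Rps14, Rps15 and Rps18, then had an adjusted p under 0.05 with limma, as did 56 of all 27022.

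The shift was larger in brighter probe sets elsewhere on the array, and among members it was seen above a signal of about 2000 with no steady order of the medians there. Of the members, 60 had a mean signal above 4000, and they made up 16.3% of the 367 tested probe sets of any kind above that level. Both transgenic arrays were above both control arrays for 57 of these 60, with a median difference of 0.25. Among 237 other probe sets above 4000, outside those that carry several symbols with a ribosomal protein among them, this was so for 150, or 63.3%, with a median of 0.14. Under quantile normalization the medians were 0.06 for the bright members, with 50 above 0 and 10 below, and -0.02 for the other bright probe sets. The 29 members up to 4000 had a median of 0.02, with 9, or 31%, above, 4 below and 16 overlapping. Of the other probe sets up to 4000, 20.3% were above, and their median was -0.02.

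In finer steps, the other probe sets had medians of -0.04 below a signal of 100, 0.06 from 1000 to 2000, 0.09 from 2000 to 4000, 0.13 from 4000 to 6000 and 0.16 from 8000 to 20000. The members had medians of -0.14 below 100 (8 probe sets), 0.15 from 1000 to 2000 (2 probe sets), 0.28 from 2000 to 4000 (5 probe sets, all above; 0.20 under quantile normalization), 0.21 from 4000 to 6000 (13 probe sets), 0.29 from 6000 to 8000 (19 probe sets) and 0.23 from 8000 to 20000 (28 probe sets). Set against the other probe sets of like signal, an alternative chosen after the values were seen, the median of the members was 0.08. The 27 poly-A control probe sets, which detect transcripts added to the sample, had a median of 0.24, and 18 of them were above and 0 below. The 18 hybridization control probe sets, which detect targets added later, had a median of 0.00, with 0 above and 1 below. The part of these shifts in the members' differences was not tested.

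Large and small subunit shifted by nearly the same amount. Median signals of the large subunit were 5409, 5626, 6527 and 6878 on control arrays 1 and 2 and transgenic arrays 1 and 2. Those of the small subunit were 5529, 5535, 6621 and 6921. In both subunits each transgenic array lay above each control array. The median difference was 0.23 for the large and 0.22 for the small subunit, and the large minus small difference of these medians was 0.007. Against the control mean, the large minus small value was -0.019, 0.019, -0.005 and -0.051 on the 4 arrays, so the arrays of the groups overlapped, and its sign turned under quantile normalization (-0.011) and whenever an array was left out (-0.051 to -0.004). A permutation of 1 control against 2 transgenic samples cannot give a p below 1 in 3, and this value was not tested.

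In the large subunit, 34 of 42 probe sets had a difference above 0, both transgenic arrays were above for 30, or 71.4%, and below for 2, and 24 had an unadjusted p under 0.05. In the small subunit, 39 of 47 had a difference above 0, both were above for 36, or 76.6%, and below for 2, and 28 had an unadjusted p under 0.05. Above a signal of 4000, both transgenic arrays were above for 24 of 27 large-subunit and 33 of 33 small-subunit probe sets, with medians of 0.24 and 0.27. Up to 4000, the medians were 0.04 over 15 large-subunit and -0.01 over 14 small-subunit probe sets. The subunits were close to each other at either brightness.

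The replicate arrays of 1 group also differed, by less. The median over the members was 0.05 for control array 2 minus control array 1 and 0.08 for transgenic array 2 minus transgenic array 1, and 69 of 89 members were higher on the second array in each pair. The 4 differences between single arrays of the groups had medians of 0.22 and 0.29 against control array 1, and 0.16 and 0.25 against control array 2, for transgenic arrays 1 and 2. All of them were wider than either within-group value. By subunit, the medians lay between 0.04 and 0.09 within groups and between 0.15 and 0.30 between groups, while those of all probe sets tested lay between -0.02 and 0.01. For 44 of the 89 members, or 49.4%, the gap between the groups was wider than the distance within either group, against 16.4% of all probe sets and 41.4% of the other bright probe sets. This held for 20 of 42 large-subunit and 24 of 47 small-subunit probe sets.

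Counting each gene by its brightest probe set, 35 of 45 genes had both transgenic arrays above both control arrays, 1 gene, Rpl12, had both below, and 9 overlapped. The median over genes was 0.23, with 0.23 for 24 large-subunit and 0.24 for 21 small-subunit genes. The genes with a dim brightest probe set lay on both sides of 0, among them Rpl14 and Rps27 with -0.06 and -0.05, and Rpl27a with 0.00. For 13 of the 46 genes, Rpl12, Rpl14, Rpl27a, Rpl37, Rpl39, Rpl39l, Rpl3l, Rps16, Rps25, Rps27, Rps27l, Rps4l and Rps6, no probe set lay above 4000. These genes may still have abundant messages, since a dim probe set can miss its target.

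Rps15, Rps18, Rps19 and Rps10 are proteins of the head of the small subunit, the lobe that swivels as the ribosome steps along the message. Rpsa was listed with them. Of the 10 tested genes in this list, 9 had both transgenic arrays above both control arrays, against 74.2% of all tested members and 95% of the bright ones. The median difference of the list was 0.26 (0.05 under quantile normalization). Rps15, whose tail reaches toward the decoding centre, had signals of 5308 and 4359 in control and 6657 and 6479 in transgenic tissue. The groups did not overlap, and the transgenic arrays were closer to each other than the control arrays were. The difference was 0.45 ± 0.09 (SE), the widest of any tested member, with an adjusted p of 0.219 in limma. It ran from 0.31 to 0.59 with single arrays left out. The SE holds no spread between the control arrays, which were averaged first. The other Rps15 probe set read 5281 and 5376 in control and 5735 and 6069 in transgenic tissue, a difference of 0.15 that turned to -0.01 under quantile normalization.

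Rps18, a neighbour of Rps15 at the subunit interface, had signals of 5227 and 4976 in control and 6617 and 6811 in transgenic tissue. Both transgenic arrays were well above both control arrays, a difference of 0.40 ± 0.09 (SE; limma adjusted p = 0.293). A second Rps18 probe set, with 4642 and 4944 against 6245 and 6127, gave 0.37 (limma adjusted p = 0.324). The brightest Rps18 probe set, with 7766 and 7981 against 9344 and 9703, gave 0.27. Under quantile normalization the 3 probe sets were at 0.24, 0.23 and 0.05. Rps19, needed to mature the small subunit, had signals of 5073 and 5269 against 6325 and 6750.5, a difference of 0.34. Rps10, at the side where the message enters, had 3924 and 5106 against 5828 and 5662, a difference of 0.36 that was 0.17 without control array 1 and 0.55 without control array 2. The other 5 Rps10 probe sets gave 0.08 to 0.27. The control arrays lay further apart than the transgenic ones, and the groups did not overlap. Rpsa, a ribosomal protein also known as the laminin receptor, had 5529 and 5473 against 6881 and 6921, a difference of 0.33 with close replicates in both groups.

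Other small-subunit proteins line the path of the message. Rps3, at the entry channel, had signals of 5213 and 5535 in control and 6261 and 7059 in transgenic tissue, a difference of 0.31. Rps2, its neighbour there, had 7321 and 7532 against 7656 and 8242, a difference of 0.10 that turned to -0.08 under quantile normalization. Rps14, Rps26 and Rps28, at the exit of the message, had differences of 0.22, 0.25 and 0.18 by their brightest probe sets, with the transgenic arrays above in each, and Rps28 turned to -0.03 under quantile normalization. The other Rps14 probe set had 6488 and 6603 against 7884 and 8776, a difference of 0.35 (limma adjusted p = 0.416). Rps6, the protein that S6 kinase phosphorylates downstream of mTOR, had 521 and 588 against 502 and 559, a difference of -0.06 with overlapping groups.

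In the large subunit, Rpl13a, which can also leave the ribosome to silence inflammatory messages, had signals of 5418 and 5329.7 in control and 7277 and 7024 in transgenic tissue. The groups were far apart relative to their replicates, with a difference of 0.41 ± 0.09 (SE) and a limma adjusted p of 0.259. Over all 4 probe sets of this gene the mean difference was 0.23, with 0.17 for the brightest. Rpl35, at the opening of the exit tunnel, had 6272 and 6732 against 8409 and 8502, a difference of 0.38 ± 0.09 (limma adjusted p = 0.303). Rpl4, Rpl19 and Rpl39, which line the tunnel or its opening, had differences of 0.23, 0.24 and 0.23, and only Rpl39, with 127 and 171 against 200.1 and 154, had overlapping groups (0.03 to 0.43 with single arrays left out). Under quantile normalization the Rpl13a probe set with the widest difference kept 0.24 and that of Rpl35 0.19. The other Rpl13a probe sets were then at 0.18, 0.05 and, for the brightest, -0.04. The other tested Rpl35 probe sets were at 0.11 to 0.15, and Rpl4, Rpl19 and Rpl39 at 0.02, 0.04 and 0.26.

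The lateral stalk is the flexible arm of the large subunit that recruits elongation factors. Its base protein Rplp0 had signals of 8559 and 9034 in control and 10295 and 10289 in transgenic tissue, a difference of 0.23 ± 0.09 (SE; limma adjusted p = 0.633). Rplp2, the acidic stalk protein, had 7411 and 7743 against 8629 and 8783, a difference of 0.20 (limma adjusted p = 0.7). Both transgenic arrays were above both control arrays for each. Rpl12, which anchors the stalk base, went the other way with 96.9 and 121 against 88.3 and 74.8, a difference of -0.36 ± 0.24 (SE; limma adjusted p = 0.844). Under quantile normalization Rplp0 and Rplp2 were at 0.02 and 0.01, and Rpl12 at -0.33.

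Rpl11, which with the 5S RNA can bind and block Mdm2 and so stabilise p53, had signals of 5400.5 and 5663 in control and 6903 and 6949 in transgenic tissue, a difference of 0.32 (limma adjusted p = 0.404). Rpl8, close to the peptidyl transferase centre, had 4862 and 4727 against 5373 and 5135, a difference of 0.13. Rpl22, an RNA-binding protein on the outer surface, had 5188 and 5555 against 6777 and 6807 on its brightest probe set and 664 and 658 against 958 and 770.3 on another. The differences were 0.34 and 0.37, with no overlap in either. A partial list of 9 genes mutated in Diamond-Blackfan anemia, a failure of red cell production, held 6 tested members. All 6 had both transgenic arrays above, as did 95% of the bright members, which all 6 are. Their differences by brightest probe set were Rps19 0.34, Rpl11 0.32, Rps7 0.29, Rps26 0.25, Rps24 0.25 and Rps10 0.21 (median 0.08 under quantile normalization).

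Some ribosomal proteins have paralogs, of which a few are made mainly in certain tissues. Rpl39l, a paralog of Rpl39 known from testis, had signals of 214 and 307 in control and 311 and 362 in transgenic tissue, a difference of 0.37 ± 0.16 (SE; limma adjusted p = 0.672). The lower transgenic array was barely above the higher control array, and the difference was 0.12 without control array 1 and 0.61 without control array 2. Rps27l, a p53-induced paralog of Rps27, had 1886 and 1949 against 2317 and 2428, a difference of 0.30, and its other probe sets gave 0.26 and 0.28. All 3 Rps27l probe sets had no overlap, and they kept 0.24, 0.19 and 0.20 under quantile normalization. Rpl3l, the paralog of Rpl3 found in striated muscle, had 35.8 and 36.6 against 44.5 and 30.5, a difference of 0.02 ± 0.36 (SE). Rps4l had 317 and 257 against 278 and 241, a difference of -0.13 with overlapping groups.

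Probe sets of 1 gene did not always move together. Among the 19 genes with several tested probe sets, the spread was widest for Rpl41, Rps24, Rpl37a, Rps9, Rps20 and Rps15. Rpl41, the shortest of the ribosomal proteins, had signals of 8294 and 8696 in control and 9990.3 and 10544 in transgenic tissue on its brightest probe set, a difference of 0.27. On another bright probe set it had 5490.2 and 7799.9 against 6098 and 5425, a difference of -0.19 that became 0.07 without control array 2. The remaining Rpl41 probe sets were dim, with 86.5 and 104 against 61.7 and 77.3 on the lower one (-0.38) and 112 and 86 against 91 and 74.8 on the other (-0.21).

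Rps24 had 4 bright probe sets with differences of 0.25 to 0.33 and a dim one with 134 and 122 against 92.5 and 120.0, a difference of -0.24. Rps9 had 4355 and 4698 against 5164 and 5312 on its bright probe set (0.21) and 49.9 and 46.1 against 43.3 and 38.4 on a dim one (-0.17). Its remaining probe set was at -0.02, and at 0.01 after median centring. Rpl37a had 0.28 and 0.25 on its bright probe sets and -0.26 on a dim one. Rps20 had 0.24 and 0.22 on its bright probe sets and 0.07 and -0.11 on dim ones, where the groups overlapped. In these 4 genes both transgenic arrays lay above both control arrays on every bright probe set, and the dim ones scattered around or below 0. Rpl41 differed, with a bright probe set below 0.

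Many ribosomal protein genes have processed pseudogenes and close copies, so a probe set can detect more than its own gene. By the suffix that marks probe design, 22 tested members with plain probe sets had a median of 0.02, with 7 above and 4 below. Of all probe sets, 21.1% were above and 23.6% below. Most of these plain probe sets were dim. Those above a signal of 4000, of Rpl19, Rpl27, Rplp0, Rps15 and Rpsa, had differences of 0.20 to 0.45, all with both transgenic arrays above. Probe design and brightness were not separated here. The 26 whose probes match several transcripts of 1 gene had a median of 0.26, with 25 above. The 38 with probes that may cross-hybridise (suffix _x_at) had 0.24, with 31 above, and 3 that match several genes (suffix _s_at) had 0.34. Outside the members, 110 probe sets carried several symbols with a ribosomal protein among them, and 28 ribosomal protein genes had only such probe sets. The 103 of these that were tested had a median of 0.22, with 79 above and 4 below, and 0.04 under quantile normalization.

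Other lists of translation genes had smaller medians in the signals as deposited, and none of their genes passed the test. Of the ribosomal protein genes outside the symbol rule, 3 were tested with a median of 0.18: Rpl22l1 had signals of 3026 and 3044 in control and 3729 and 3892 in transgenic tissue, a difference of 0.33 (limma adjusted p = 0.422), Fau 0.18 and Rpl7l1 0.10. The 9 genes of the elongation list, among them factors that carry transfer RNA or move the ribosome, had a median of 0.19 (0.02 under quantile normalization). Of these, 5 were above and 0 below, led by Eef1a2 with 0.34 and by Eef1e1, a protein of the aminoacyl-tRNA synthetase complex, with 0.32. The 33 initiation factors, which load the ribosome onto messages, had a median of 0.06 (0.03 under quantile normalization), with 17 above and 5 below, led by Eif2b1 with 0.45 and Eif2s2 with 0.34. The share above was 55.6% in the elongation list and 51.5% in the initiation list. Over all probe sets, 21.1% were above and 23.6% below.

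Genes that build ribosomes had medians near those of the initiation factors. The 34 assembly factors had a median of 0.07 (0.07 under quantile normalization), with 10, or 29.4%, above and 3 below. Over all probe sets, the shares were 21.1% above and 23.6% below. The widest differences among assembly factors were Nop10 with 0.28 and Gnl3 with 0.23. For 16 genes of RNA polymerase I, which makes ribosomal RNA, the median was 0.06 (0.07 under quantile normalization). Of these, 6, or 37.5%, were above and 3 below, from Polr1b with -0.35 to Polr2h with 0.42. The 21 genes of mTOR and Myc control of ribosome synthesis had a median of 0.00 (0.01 under quantile normalization). Of these, 5, or 23.8%, were above and 6 below, near the shares over all probe sets. In that list the inhibitors of mTOR signalling Sesn2, with 101 and 62.8 against 38.9 and 48.5, and Ddit4, with 503 and 536 against 389.6 and 358, had differences of -0.69 and -0.46, and limma adjusted p-values of 0.68 and 0.452.

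The proteins of the mitochondrial ribosome, which translates the messages of the mitochondrial genome, had a median difference of 0.13 over 76 genes. Both transgenic arrays were above both control arrays for 44, or 57.9%, against 21.1% of all probe sets, and below for 6, against 23.6% of all. A difference above 0 was found for 61. None had an adjusted p under 0.05 with limma (lowest 0.442), and 12 were higher at an unadjusted p under 0.05, against 4.14% of all probe sets. The median was 0.15 under quantile normalization, where that of the cytosolic members was 0.05. Mrps22, a small-subunit protein, had signals of 255 and 312 against 435 and 379, a difference of 0.50, and Mrpl32 of the large subunit had 0.41.

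The tissue is labelled retina, but no rod photoreceptor marker had a mean signal above 150. Most markers of corneal epithelium, skeletal muscle and pigment cells did, and some markers differed between the groups. Which parts of the eye were taken was not tested. Of 12 rod photoreceptor markers with a probe set, 0 had a mean signal above 150, their summed signal was 409 to 432 in control and 389 to 471 in transgenic tissue, and the 4 tested had a median of 0.02 (Gngt1 0.63, Sag -0.27). All 6 corneal epithelium markers lay above 150, with sums of 47965 to 49242 and 50351 to 54941 and a median of 0.08 (-0.07 under quantile normalization), and Krt12, a corneal keratin, had 0.22 and Tkt 0.15 (-0.06 under quantile normalization). Of these 6 markers, 5 had a difference above 0, and Pax6 had -0.08. The 13 skeletal muscle markers had sums of 16216 to 16446 and 24986 to 25059 and a median of 0.47, with Mb (1.06), Myl1 (1.00) and Mylpf (0.87) past the limma threshold. The 12 tested pigment epithelium and melanocyte markers had a median of 0.46 (sums 40947 to 41025 and 48793 to 52811), and Rpe65 (1.24) and Rgr (1.06) passed.

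The 8 tested lens markers had a median of 0.94 (sums 2501 to 2566 and 3453 to 3481), with Cryaa (2.00), Cryba1 (1.96) and Crygb (1.84) past the threshold and 1 of them without control array 1. In control tissue Cryaa read 9.47 and 17.7, Cryba1 19.3 and 32.5, and Crygb 15.1 and 23.3. These genes passed the filter, at a signal of about 30.0, through their transgenic signals, so their calls carry that limit. So did Crybb2, with 18.7 and 22.2 in control tissue, and Bfsp2, with 12.7 and 32.5, so the lens median carries it too. The untested lens markers Bfsp1, Mip and Crygs had differences of -0.29, 0.19 and 1.61. Cryab gave most of the lens sums, with 2378 and 2250.0 against 2819 and 2792. The 9 stromal and scleral fibroblast markers had a median of 0.20 (sums 22604 to 24072 and 29972 to 29991), and Kera passed with 1.54, while Lum had 0.55 without passing. Of these 9 markers, 6 had a difference above 0 and 3 below, the lowest being Pdgfra with -0.13. The 3 tested red blood cell markers had a median of 0.66 (Alas2 0.72, Slc4a1 0.66; sums 401 to 502 and 511 to 615; median 0.33 without control array 2), with signals of 2.82 to 19.6 for Hba-a1, which was not tested. The 8 tested proliferation markers had a median of -0.05 (Pcna 0.30, Rrm2 -0.22; sums 5529 to 5748 and 5879 to 6060.1). The part of these tissue markers in the ribosomal protein differences was not tested.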

How the data were processed

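The values are linear intensities, 1 per probe set and array, as the authors deposited them; the software and genome build behind them are not given in the sources used here. Median intensities were 49, 50.3, 47.1 and 49.5 on control arrays 1 and 2 and transgenic arrays 1 and 2, and values were neither centred nor on a log scale. The number of arrays limits the precision. Symbols come from the platform annotation, which can be old, and 64 array control probe sets were left out of the tests. The gene of the transgene was not analysed here.

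Intensities were transformed as log2(signal + 16). The control arrays were averaged, probe sets above the 40th percentile were kept, and limma 3.58.1 in R 4.3.3 was fitted with intensity-trended moderation, two-sided tests and Benjamini-Hochberg adjustment over 27022 probe sets at 0.05. The fit had 1 residual and 10.3 prior degrees of freedom, with the single control sample taken to have the same spread as the transgenic samples. It was tested on simulated data.

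Genes named are the 10 members with the widest differences in each direction without overlap (4 below), up to 3 per role of the ribosome, listed paralogs, untested genes, the 6 genes whose probe sets differ most, and 2 genes per other list plus those that passed. Each gene of a list, and each role, was represented by its brightest tested probe set. Members, lists and tests were chosen with earlier results of these data known. A level of 4000 for bright probe sets, a few members near 0, promoter motifs and the comparison with probe sets of like signal were chosen after the values were seen. Alternatives were quantile normalization, median centring, pseudocounts of 1 and 64, no filter, a stricter filter (60th percentile), 4 separate arrays without or with a block for the replicate number, no trend, robust moderation, leaving out each array, leaving out _x_at and _s_at probe sets, and averaging a gene's probe sets.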

Additional observations from a re-analysis of the deposited data

How the results depend on the processing

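Across the alternatives run, the median of the members and of each subunit kept its sign, and with single arrays left out it ran from 0.19 to 0.27 for the members. Quantile normalization brought it to 0.05 (large 0.04, small 0.05), and comparison with other probe sets of like signal, chosen after the values were seen, to 0.08 (large 0.08, small 0.10). The large minus small difference had no stable sign, with -0.051 to -0.004 when single arrays were left out. The cause of these moves was not tested.

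With limma, the 21 calls among all probe sets became 39 under quantile normalization, 56 after median centring, 0 without a filter, 0 without the intensity trend, 135 with 4 separate arrays and 14 to 33 with a control array left out. Calls among the members became 5 after median centring and 6 with 4 separate arrays (of Rpl13a, Rpl35, Rps18 and Rpsa), and were 0 in the other alternatives without a block. Without a trend, 0 members had an unadjusted p under 0.05, and without a filter 21 did. Leaving out a transgenic array leaves no residual degrees of freedom, so those values have no test. Without _x_at and _s_at probe sets, 22 plain members and 26 that match several transcripts of 1 gene remained. Of these, 36 had no overlap between groups, where 70 of all 89 members had none.

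The labels give both groups the numbers 1 and 2. The deviations of same-numbered arrays correlated with r = 0.10 over the probe sets tested. The labels used here state no link beyond the number, and control 2 is labelled a technical replicate. Whether same-numbered arrays share anything further was not tested. With the replicate number as a block and 4 arrays, 1740 of all probe sets and 59 of the members were called. The same block gave 12 mitochondrial ribosomal protein, 10 pigment, 8 muscle, 5 lens, 5 fibroblast, 5 initiation factor, 3 elongation factor, 2 assembly factor and 2 further ribosomal protein genes, and 1 each of RNA polymerase I, mTOR and Myc control, corneal epithelium, red blood cell and proliferation genes.

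Of the named members, quantile normalization reversed Rpl13a on its brightest probe set (-0.04), Rps15 on its second probe set (-0.01), Rps2 (-0.08) and Rps28 (-0.03). Median centring reversed 1 Rps9 probe set (0.01). With single arrays left out, differences of both signs were found for Rpl3l (-0.17 to 0.21), Rpl41 (-0.44 to 0.07), Rps20 (-0.18 to 0.33 and -0.38 to 0.15), Rps4l (-0.28 to 0.01), Rps6 (-0.15 to 0.02) and Rps9 (-0.11 to 0.08). Without a change of sign, values ran from 0.12 to 0.61 for Rpl39l, 0.17 to 0.55 for Rps10, 0.03 to 0.43 for Rpl39, 0.22 to 0.52 for Rpl22 (dimmer probe set), 0.14 to 0.31 for Rps14, 0.04 to 0.15 for Rps2, -0.50 to -0.21 for Rpl12, and, on dim probe sets, -0.51 to -0.01 for Rpl37a, -0.52 to -0.25 and -0.38 to -0.05 for Rpl41, -0.40 to -0.08 for Rps24 and -0.23 to -0.11 for Rps9.

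In the other lists, quantile normalization gave medians of -0.07 for corneal epithelium, 0.31 for pigment, 0.40 for muscle, 0.10 for ribosomal protein genes outside the symbol rule, 0.02 for elongation and 0.03 for initiation factors. Median centring gave 0.49 for pigment, 0.21 for ribosomal protein genes outside the symbol rule and 0.09 for initiation factors, and called 4 pigment and 2 fibroblast genes. With 4 separate arrays, 5 pigment, 5 muscle and 2 fibroblast genes were called. Without a filter, and without a trend, 0 lens, 0 pigment, 0 muscle and 0 fibroblast genes were called. The lens median was 1.37 and 0.48 with pseudocounts of 1 and 64, and the red blood cell median 0.32 with 64. The filter at the 60th percentile left 0 lens calls and medians of 0.28 for lens, 0.37 for red blood cell and 0.18 for rod markers. With single arrays left out, medians ran from 0.13 to 0.22 for ribosomal protein genes outside the symbol rule, -0.08 to 0.02 for mTOR and Myc control, 0.36 to 0.46 for muscle, 0.42 to 0.45 for pigment, 0.80 to 1.16 for lens, 0.33 to 0.76 for red blood cell, -0.10 to 0.02 for proliferation 0.11 to 0.18 for mitochondrial ribosomal protein genes, 0.10 to 0.27 for elongation and 0.06 to 0.08 for initiation factors, 0.02 to 0.11 for assembly factors, 0.02 to 0.10 for RNA polymerase I, 0.11 to 0.28 for fibroblast, 0.02 to 0.15 for corneal and -0.07 to 0.16 for rod markers. Lens calls then ran from 1 to 3.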

Other observations

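The array's own control probe sets for mouse 18S ribosomal RNA, the RNA of the small subunit, varied between arrays of the same group. The 5′ probe set read 6493 and 885 in control and 4983 and 1648 in transgenic tissue. The middle probe set read 343 and 143 against 216 and 145, and the 3′ probe set read 325 and 184 against 211 and 204. In each of the 3, the first array of a group read higher than the second. The control arrays are labelled technical replicates. For the members the second array of each group was the higher one for 69 of 89 probe sets.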
